A study of Mus musculus with 3 samples.

Results

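The genes described here are 10 genes of the presomitic mesoderm and of body segmentation (Tbx6, Msgn1, Dll1, Dll3, Lfng, Hes7, Mesp2, Ripply2, Meox1 and Tcf15), measured in mouse embryoid bodies at day 8 of cardiac differentiation. They were chosen by name, and their 12 probes were found on the array through the RefSeq accession that each probe carries. All 10 genes had a probe, 9 of them gave a signal that could be tested, and they stand among 19802 genes tested in all. On each of 3 Agilent arrays, 1 for each biological replicate, RNA of a Hopx-/- culture (null) and of a Hopx+/- culture (heterozygous) was hybridised together in 2 colours. Hopx encodes a small homeodomain protein of heart and progenitor cells, and the study asked about its part in muscle formation and commitment. There was no wild-type group, so the controls also lack 1 copy of Hopx. The stem cells came from blastocysts of either genotype and were kept on feeder cells, and the cardiac medium held VEGF, bFGF, FGF10 and ascorbic acid. It is not given in the labels if the replicates were different stem cell lines, so the p-values speak only to the spread over these cultures, and a difference between genotypes cannot be told apart from a difference between lines.

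The presomitic mesoderm is the tissue beside the tail end of the embryo's axis from which somites, the forerunners of vertebrae, trunk muscle and dermis, are cut off in a regular rhythm. Tbx6 and Msgn1 give this tissue its identity, and an oscillating circuit of Notch ligands, the modifier Lfng and the repressor Hes7 sets the rhythm. Mesp2 and Ripply2 place each boundary, and Meox1 and Tcf15 act in the newly formed somite. In embryonic stem cell differentiation, presomitic and cardiac mesoderm are alternative products of the primitive streak. Several of the genes also act elsewhere: Dll1, Dll3 and Lfng in the developing nervous system, and Tcf15 in early epiblast and in heart endothelium.

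The sequence before the transcription start is shown for 3 genes: Dll3, which had the highest ratio of the genes with signal in both genotypes, and Lfng and Hes7, the pair of oscillating genes that Notch itself drives. Each is the stretch of 250 bases before the start, 5′ to 3′ on the gene's own strand, from the RefSeq promoter table on build GRCm38.p6. Capitals mark matches on either strand to TGGGAA (the core bound by the Notch effector Rbpj), AGGTGT (a T-box core), CANNTG (an E-box) and CTTTGA (a Tcf/Lef core).
Dll3, chr7:28301786-28302035, minus strand: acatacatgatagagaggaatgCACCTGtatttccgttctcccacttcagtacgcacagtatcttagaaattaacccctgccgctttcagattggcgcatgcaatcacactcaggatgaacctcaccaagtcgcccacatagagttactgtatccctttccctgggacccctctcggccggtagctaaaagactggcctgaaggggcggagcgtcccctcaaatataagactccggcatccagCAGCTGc
Lfng, chr5:140607091-140607340, plus strand: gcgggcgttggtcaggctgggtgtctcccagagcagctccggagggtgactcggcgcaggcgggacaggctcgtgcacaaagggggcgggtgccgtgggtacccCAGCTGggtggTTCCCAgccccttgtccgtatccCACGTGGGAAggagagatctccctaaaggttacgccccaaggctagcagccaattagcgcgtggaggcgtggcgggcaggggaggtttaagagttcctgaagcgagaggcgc
Hes7, chr11:69120203-69120452, plus strand: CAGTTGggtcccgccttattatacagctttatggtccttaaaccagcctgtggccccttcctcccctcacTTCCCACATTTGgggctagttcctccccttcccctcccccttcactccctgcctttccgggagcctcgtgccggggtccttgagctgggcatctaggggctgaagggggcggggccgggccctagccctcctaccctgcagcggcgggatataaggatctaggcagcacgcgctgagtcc

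The table held windows for 8 of the 10 genes, 9 windows in all because Dll1 had 2 starts. Meox1 and Tcf15 had no entry. The Rbpj core was found in 3 of the 9 windows, those of Lfng, Hes7 and Msgn1, against 21.6% of 32851 windows of the same length over all genes. Lfng held it 135 and 108 bases before the start, the second overlapping an E-box that begins 112 bases before the start, and Hes7 held it 180 bases before the start, directly before an E-box. Msgn1 held the Tcf/Lef core 202 and 143 bases before its start, the only 1 of the 9 windows with this core (13.8% of all windows). E-boxes lay in 8 of the 9 windows (66.2% of all) and the T-box core in 0 of the 9 (11.8% of all). The Dll3 window held E-boxes 228 and 7 bases before the start and none of the other 3 motifs, as did both Dll1 windows, with 1 and 3 E-boxes. These matches describe letters in the window and are not measured sites.

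The share of the 43020 non-control spots with a signal well above background ran from 61.9% to 72.9% over the 6 channels, and precision is limited by there being 3 arrays. All 3 arrays lay on 1 slide and were scanned together. The targeted gene, Hopx, had a mean log2 ratio of -3.13 (SE 0.11, limma adjusted p = 2.84e-07, n = 3), with -2.98, -2.97 and -3.45 on the single arrays. Signed values here are log2 ratios of null over heterozygous with the dyes of replicate 3 turned. By the labels the null RNA carries Cy5 throughout, but as labelled replicate 3 correlated across probes at r = -0.90 with both other arrays, and these at r = 0.94 with each other, with probes not being independent replicates. In the authors' deposited table replicate 3 has the opposite sign to its own scanner ratios (r = -0.94), and that direction was taken. The direction of replicate 3 is therefore not settled by the labels, and values with it as labelled are given below.

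Of the 9 genes tested, 8 were higher in null cultures at a limma adjusted p under 0.05, 0 were lower and 1, Hes7, did not pass. Over all tested genes 60.3% were called, 30.2% as higher and 30.1% as lower in null cultures. Of the 6 well above background in both genotypes on all arrays, Dll3 rose most and Tcf15 next. Meox1, for which only a bound can be given, was at least 2.58-fold higher by the mean of the main fit. Not every array or alternative below kept this bound. Mesp2, Tbx6, Lfng, Ripply2 and Dll1 rose by less than 0.6 on the log2 scale. The median ratio of the 9 was 0.43, and it was 0.0034 over all genes tested. At least 2-fold rises were seen for 2 of the 9, Dll3 and Meox1, against 4.87% of all genes tested. A gene was tested if its probe was well above background in at least 1 genotype on all 3 arrays. Meox1, Mesp2 and Ripply2 passed only through the null channel, where they had to be the higher, so the count of 8 is a description of the set and not independent support. Of the other 6, 5 rose (29.8% of all genes so measured). In whole cultures, more cells of a type and more RNA per cell cannot be told apart.

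**Figure D1:**
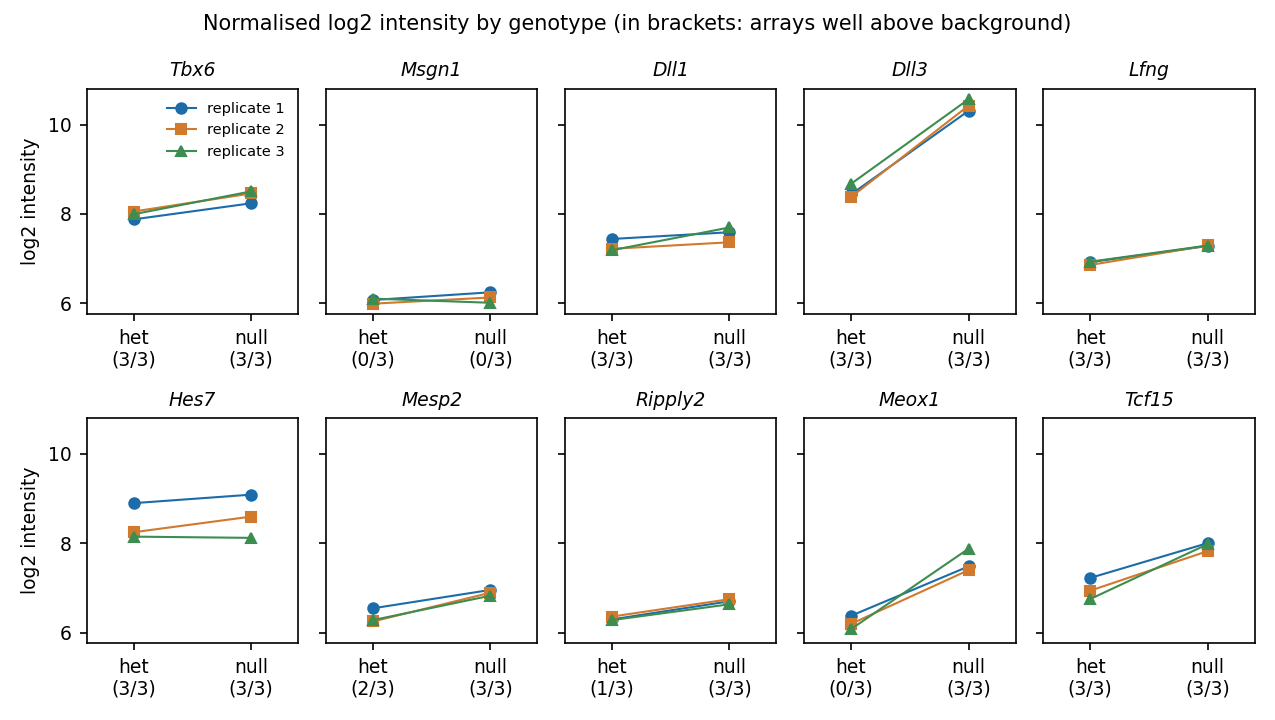
Normalised log2 intensity of the brightest probe of each of the 10 genes in heterozygous (het) and null cultures, a line for each array. Brackets give the number of arrays on which the probe was well above background. The lines of Dll3, Meox1 and Tcf15 rise steeply on all arrays, and Msgn1 was not above background in either genotype.

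Of the transcription factors that define the presomitic state, Tbx6 rose a little and Msgn1 was not detected. Tbx6, a T-box factor that steers cells to the presomitic instead of the neural fate, had normalised log2 intensities of 8.24, 8.46 and 8.51 in the null cultures of replicates 1, 2 and 3, and of 7.88, 8.06 and 7.99 in the heterozygous ones. All null values lay above all heterozygous values. The ratios of 0.36, 0.40 and 0.51 gave a mean of 0.43 (SE 0.08, n = 3, limma adjusted p = 0.00226), a 1.34-fold higher signal. Its dimmer probe did not follow: with ratios of -0.09, 0.00 and -0.03 its mean was -0.04 (SE 0.08, 95% interval -0.22 to 0.15, adjusted p = 0.719). Averaging both probes put Tbx6 at 0.19 and ended its call (limma adjusted p = 0.0595, from 0.00041 to 0.0595 over its alternatives other than replicate 3 as labelled). The level of Tbx6 is thus measured as higher by the brighter probe alone.

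Msgn1, a basic helix-loop-helix factor found almost nowhere but in presomitic mesoderm, was well above background in 0 of the 6 channels. Its spot medians were 58, 47 and 41 in null cultures, over local backgrounds of 41, 39 and 37, and 40, 29 and 46 in heterozygous cultures, over 35, 31 and 39. It has no usable level in either genotype, and its ratios of 0.17, 0.14 and -0.09 were not tested. A gene that marks the tissue specifically was therefore not detectable at this signal, and the other 9 genes are described as genes and not as a count of presomitic cells.

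**Figure D2:**
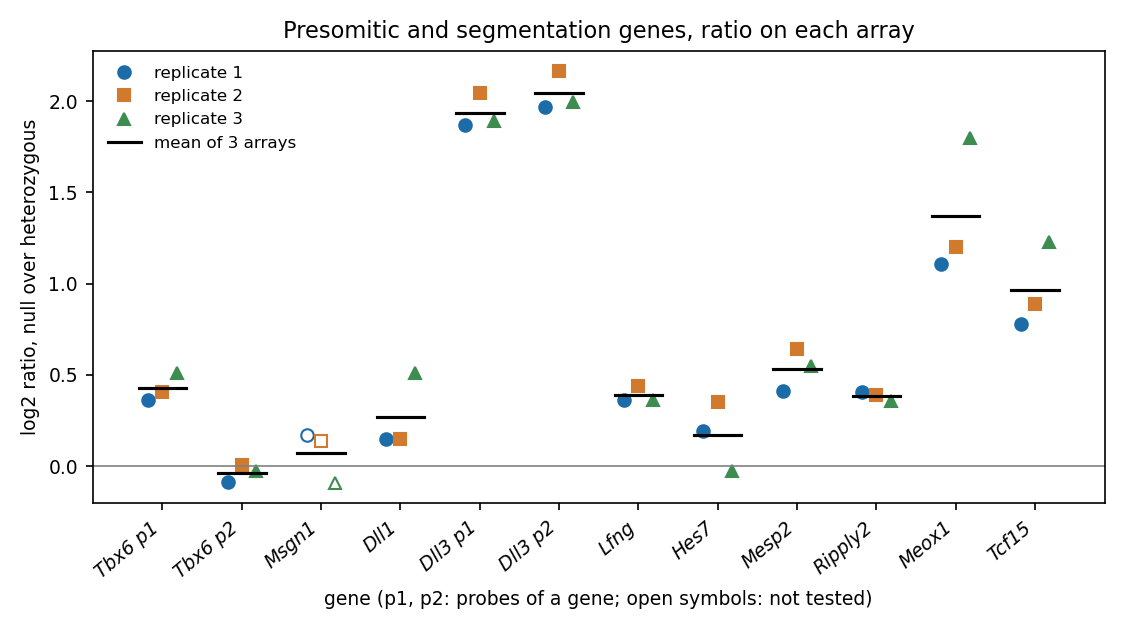
Log2 ratio of null over heterozygous on each array (symbols) with the mean of the 3 arrays (bars) for all 12 probes of the 10 genes, with p1 the brighter and p2 the dimmer probe of a gene. Both Dll3 probes lie near 2, the second Tbx6 probe lies at 0, and the ratios of Dll1, Hes7, Meox1 and Tcf15 spread most between arrays.

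The 2 Notch ligands gave ratios of unlike size. Dll3, a divergent ligand that is kept inside the cell and does not activate Notch on neighbours, stood at 10.31, 10.43 and 10.57 in null and at 8.44, 8.38 and 8.68 in heterozygous cultures on the log2 scale. The groups were far apart on every array. Dll3 rose by 1.94 (SE 0.08, n = 3, limma adjusted p = 7.32e-07), a 3.83-fold higher signal, with ratios of 1.87, 2.05 and 1.89. Its other probe gave 2.04 (SE 0.09, adjusted p = 6.15e-07), with ratios of 1.97, 2.16 and 1.99, so both probes gave nearly the same rise. In the order of all 19802 genes by ratio, Dll3 stood at place 134. It kept its call under all 13 settings other than replicate 3 as labelled, with ratios from 1.67 to 2.26.

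Dll1, the main activating ligand of the presomitic mesoderm, stood at 7.59, 7.37 and 7.70 in null and at 7.44, 7.22 and 7.19 in heterozygous cultures, and the groups overlapped. Its mean ratio of 0.27 (SE 0.10, n = 3, limma adjusted p = 0.0439) lay close to the threshold, with a 95% interval from 0.04 to 0.50. The 3 arrays did not give the same size: 0.15 and 0.15 on replicates 1 and 2 and 0.51 on replicate 3. Dll1 was printed 10 times on each array, with 1 spot of replicate 2 left out as an outlier. The spots' SD within an array was 0.08, 0.07 and 0.06, and all spots of replicate 3 (lowest 0.41) lay above all spots of replicates 1 and 2 (highest 0.28 and 0.26). Replicate 3 is the array whose dyes were turned, and a fit with a term for the dye gave Dll1 a ratio of 0.33 (limma adjusted p = 0.00373). Replicate 3 was the only array turned, so this term also takes up any other difference of replicate 3, and its p is not firmer support. The call was lost without any 1 of the replicates: the ratio was 0.33 without replicate 1 (adjusted p = 0.0580), 0.33 without replicate 2 (0.0610) and 0.15 without replicate 3 (0.201), within a range of adjusted p from 0.00373 to 0.226 over its alternatives other than replicate 3 as labelled. Measured on the same arrays, the ratio of Dll3 exceeded that of Dll1 by 1.72, 1.90 and 1.39 (mean 1.67 ± 0.26 SD, n = 3). An exact sign-flip permutation test of this difference gives p = 0.25, the smallest that 3 arrays allow (two-sided, unadjusted, 1 of 5 gene pairs compared, of which Meox1 with Meox2 is not given because Meox1 has only a bound). No pair can pass an adjustment over the 5.

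Lfng and Hes7, the oscillating genes, changed little. Lfng, a glycosyltransferase that alters how Notch answers its ligands, stood at 7.28, 7.30 and 7.29 in null and at 6.92, 6.86 and 6.93 in heterozygous cultures. Its groups were narrow and did not overlap. It rose by 0.39 (SE 0.08, n = 3, limma adjusted p = 0.00331), with ratios of 0.36, 0.44 and 0.36. With the scanner software's processed signals the rise was 0.78. Its relatives Mfng and Rfng, with the same enzymatic activity, gave 0.79 (SE 0.11, adjusted p = 0.000278) and 0.23 (SE 0.10, adjusted p = 0.0796). The difference of Mfng from Lfng was 0.40 ± 0.27 (SD, n = 3, exact permutation p = 0.25, the smallest that 3 arrays allow).

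Hes7, the repressor at the core of the clock, stood at 9.09, 8.60 and 8.12 in null and at 8.90, 8.25 and 8.15 in heterozygous cultures. The levels of the 3 replicates lay further apart than those of the genotypes, highest on replicate 1 in both. The ratios of 0.19, 0.35 and -0.03 had a mean of 0.17 (SE 0.10, n = 3, limma adjusted p = 0.158), with a 95% interval from -0.05 to 0.39. Hes7 passed at 0.43 (adjusted p = 0.00714) when arrays were centred on their medians without loess, which moved all genes to a median of 0.23, and without replicate 3 at 0.27 (adjusted p = 0.0310). Its adjusted p ran from 0.00714 to 0.674 over its alternatives other than replicate 3 as labelled.

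The genes of the segment boundary rose from signals near background. Mesp2, which sets the front edge of the next somite, stood at 6.95, 6.89 and 6.83 in null and at 6.54, 6.25 and 6.28 in heterozygous cultures, where it was well above background on 2 of 3 arrays. It rose by 0.53 (SE 0.09, n = 3, limma adjusted p = 0.000812), with ratios of 0.41, 0.64 and 0.55. Ripply2, a corepressor that ends the action of Tbx6 and Mesp2, stood at 6.70, 6.75 and 6.63 in null and at 6.29, 6.36 and 6.28 in heterozygous cultures, where it was above background on 1 of 3 arrays. It rose by 0.38 (SE 0.08, n = 3, limma adjusted p = 0.00336), with ratios of 0.41, 0.39 and 0.35. Null and heterozygous values did not overlap for either gene, yet the size of either rise is not firm. With the scanner software's processed signals Mesp2 rose by 1.64 and Ripply2 by 1.83, while in the authors' deposited table they stood at 0.20 and 0.13 and did not pass (limma adjusted p = 0.186 and 0.326, the highest of their alternatives other than replicate 3 as labelled). Mesp1, the related gene that acts earlier in cardiac and other mesoderm, had a ratio of 3.76 (SE 0.09). It lay above Mesp2 by 3.35, 3.25 and 3.09 on the 3 arrays (exact permutation p = 0.25, n = 3, the smallest p that 3 arrays allow).

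Both transcription factors of the formed somite rose. Meox1, a homeodomain factor of the somite and its sclerotome, stood at 7.48, 7.40 and 7.88 in null and at 6.38, 6.19 and 6.08 in heterozygous cultures. Its signal was well above background on 3 of 3 arrays in null and on 0 of 3 in heterozygous cultures, so only a bound can be given. In the main fit the null level of Meox1 was at least 2.58-fold higher (limma adjusted p = 4.14e-05), from the mean of log2 ratios of 1.11, 1.20 and 1.80. For this bound the heterozygous level was the probe's own signal, which lay above the dimmest detected signal on all 3 arrays, and it is open to dye bias. The bound therefore equals the mean log2 ratio of 1.37. Processed signals put the ratio at 4.52, while the authors' deposited table (0.94) and the fit without replicate 3 (1.15) lay below the bound. The bound thus holds for the mean of the main fit only. The size of the rise is not firm, and the cause was not tested. Its relative Meox2, active in somites and limb muscle, gave 0.38 (SE 0.12, limma adjusted p = 0.0261), with signal above background in heterozygous cultures on 1 of 3 arrays.

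Tcf15, a basic helix-loop-helix factor that makes somite cells epithelial and is also known as paraxis, stood at 8.00, 7.82 and 7.98 in null and at 7.22, 6.94 and 6.75 in heterozygous cultures, well above background in all 6 channels. The groups did not overlap. It rose by 0.97 (SE 0.10, n = 3, limma adjusted p = 7.75e-05), a 1.95-fold higher signal, with ratios of 0.78, 0.89 and 1.23. With processed signals the rise was 1.63. For 4 of the 9 tested genes, Tbx6, Dll1, Meox1 and Tcf15, replicate 3 gave the highest ratio of the 3 arrays.

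Null and heterozygous levels did not overlap for 7 of the 9 tested genes, all higher in null cultures. Over all tested genes, 52.2% were so separated and 26.1% in that direction. Meox1, Mesp2 and Ripply2, which are among the 7, passed the filter only through the null channel. The count of 7 is therefore also a description and not independent support. Dll1 and Hes7 were the 2 that overlapped. In the order of the ratios, with Meox1 left aside because it has only a bound, the lowest array value of Dll3 (1.87) lay above the highest of Tcf15 (1.23), and the lowest of Tcf15 (0.78) above the highest of Mesp2 (0.64). Next came Mesp2, Tbx6, Lfng, Ripply2, Dll1 and Hes7, and each of these overlapped its neighbour in that order. All array values of Mesp2 lay just above those of Ripply2, and all those of Mesp2, Tbx6, Lfng and Ripply2 lay above the highest of Hes7 (0.35). With processed signals the order was another: Meox1 (4.52) stood above Dll3 (2.23), and Ripply2 (1.83) and Mesp2 (1.64) above Tcf15 (1.63).

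**Figure D3:**
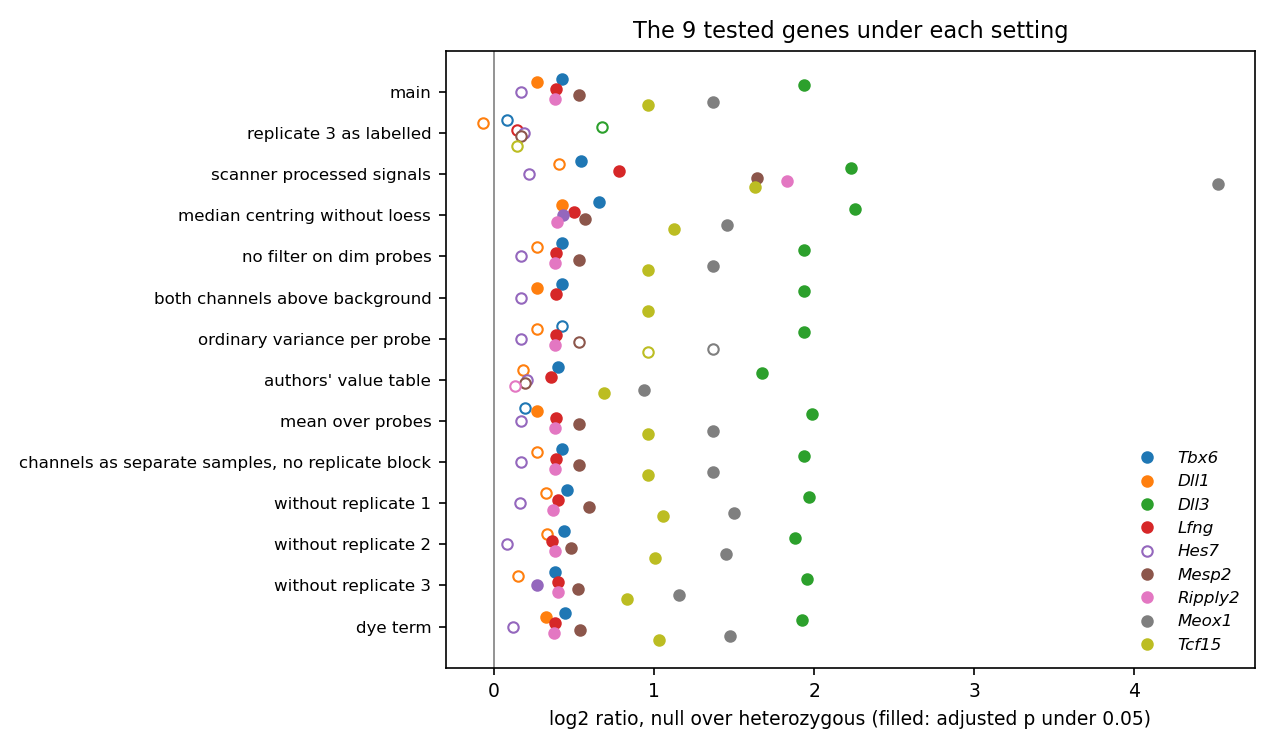
Log2 ratio of the 9 tested genes under each setting in which a gene could be tested, filled where the limma adjusted p (for the ordinary variance, the unmoderated one) was under 0.05. Dll3 keeps its place at 1.67 or above except with replicate 3 as labelled, where no gene passes. The dim genes Meox1, Ripply2 and Mesp2 move far to the right with the scanner software's processed signals.

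Every call that uses replicate 3 depends on its direction. With it as labelled, 0 of 19367 genes were called by limma, and 75 genes and 0 of the 7 members then tested had an unadjusted p under 0.05. Meox1 and Ripply2 did not pass the filter there and were not tested. The means over the 3 arrays were 0.67 for Dll3, 0.19 for Hes7, 0.17 for Meox1 and Mesp2, 0.15 for Lfng, Ripply2 and Tcf15, 0.08 for Tbx6 and -0.07 for Dll1, the only 1 to change sign. On replicates 1 and 2 alone, whose direction the labels and the authors' deposited table both give, 8 of the 9 were called higher (29.7% of all genes), with Hes7 in place of Dll1. There Dll3 stood at 1.96, Meox1 at 1.15 and Tcf15 at 0.83. A fit with a term for the dye, added after the data were seen, called 8 (33.2% of all genes higher). Dll3 stood at 1.93, Meox1 at 1.48 and Tcf15 at 1.03 in that fit, where dye and replicate 3 cannot be told apart. With the variance of each probe taken alone, 3 of the 9 passed (Dll3, Lfng and Ripply2), against 9.92% of all genes called higher. These fits kept the same filter, which Meox1, Mesp2 and Ripply2 passed only through the null channel. Their counts are therefore also descriptions and not independent support.

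Other genes of somite formation were read from 3 lists. Of 15 tested genes of the clock and Notch signalling, 4 rose, 3 fell and 8 did not pass (median 0.02). Dtx1, a Notch-binding ubiquitin ligase, rose by 1.44 (SE 0.14, limma adjusted p = 4.17e-05) and Nrarp, a direct Notch target and feedback inhibitor, by 0.44 (SE 0.09, adjusted p = 0.00276), a call lost in the authors' deposited table (adjusted p = 0.0555) and with channels as separate samples (0.109). Notch1, the receptor of the presomitic mesoderm, fell by 0.49 (SE 0.08, adjusted p = 0.000835), and Pofut1, which adds the sugar that Lfng extends, by 0.67 (SE 0.09, adjusted p = 0.000216), though a further Pofut1 probe stood at 0.000099. With median centring in place of loess Pofut1 stood at -0.25 and did not pass (adjusted p = 0.0877). Hes1, a Notch-driven repressor, stood at -0.02 (SE 0.09, adjusted p = 0.830), and its sign turned in the authors' deposited table, without replicate 2 and with a dye term. With median centring, which moved the median of all genes to 0.23, 8 of the 15 rose and 2 fell, and the list's median lay above that of all genes by 0.15. The members' median lay above it by 0.34.

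Of 26 tested genes of posterior Wnt and Fgf signalling and the tailbud, 16 rose, 2 fell and 8 did not pass (median 0.47). T, the streak and tailbud factor Brachyury, was not above background in heterozygous cultures. By the mean of the main fit it was at least 6.72-fold higher (limma adjusted p = 1.49e-05). Its ratios were 1.90, 3.26 and 3.08, with a mean of 2.75, so replicate 1 lay below this bound. The ratio of T was 5.58 with processed signals and 1.96, below this bound, in the authors' deposited table, so its size is not firm. Wnt5b rose by 2.67 (SE 0.08), Fgf8, the ligand of the posterior gradient, by 1.30 (SE 0.14, adjusted p = 7.46e-05) and Rspo3, a Wnt potentiator, by 0.58 (SE 0.10, adjusted p = 0.00104). Sp8, a zinc finger factor of the tailbud and limb, rose by 2.62 (SE 0.13, adjusted p = 1.28e-06) by its brighter probe and stood at 0.02 by the other. The 2 that fell were Cdx2, a tailbud and trophoblast factor, by 1.10 (SE 0.09, adjusted p = 1.66e-05) and Spry2, an Fgf feedback inhibitor named after its values were seen, by 1.97. Wnt3a, the Wnt ligand that keeps presomitic progenitors, was above background in 0 of the 6 channels.

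Of 19 tested genes of somite boundaries, polarity and differentiation, 12 rose, 4 fell and 3 did not pass (median 0.38). Aldh1a2, which makes retinoic acid in somites, rose by 2.51 (SE 0.10), Foxc2, a factor of paraxial mesoderm, by 1.30 (SE 0.09, adjusted p = 6.86e-06), and Pax3, a factor of the dermomyotome and neural tube, by 0.35 (SE 0.11, adjusted p = 0.0198), a call lost without replicate 3, at 0.21 (adjusted p = 0.0786), and within a range up to 0.778 over its alternatives other than replicate 3 as labelled. Pax1, a sclerotome and pharyngeal endoderm factor, fell by 1.91 (SE 0.09, adjusted p = 1.1e-06). Uncx, a marker of the rear part of each somite, was above background in the null channel on 2 arrays and in the heterozygous channel on 0, and was not tested. For lateral plate, cardiac and intermediate mesoderm, the neighbours of the somite, 8 of 13 tested genes fell and 4 rose (median -0.36). Nkx2-5 stood at -2.23 (SE 0.15), Gata4 at -1.52 (SE 0.10) and Lhx1, of intermediate mesoderm, at 1.10 (SE 0.11). The others that rose, named after their values were seen, were Foxf1 at 1.04, Wt1 at 0.73 and Hand2 at 0.60. With median centring 5 of the 13 fell and 4 rose, and the list's median was -0.02, or -0.25 relative to that of all genes. Without replicate 2 its median was -0.22, with 6 lower. With replicate 3 as labelled, 0 genes of these lists passed.

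**Figure D4:**
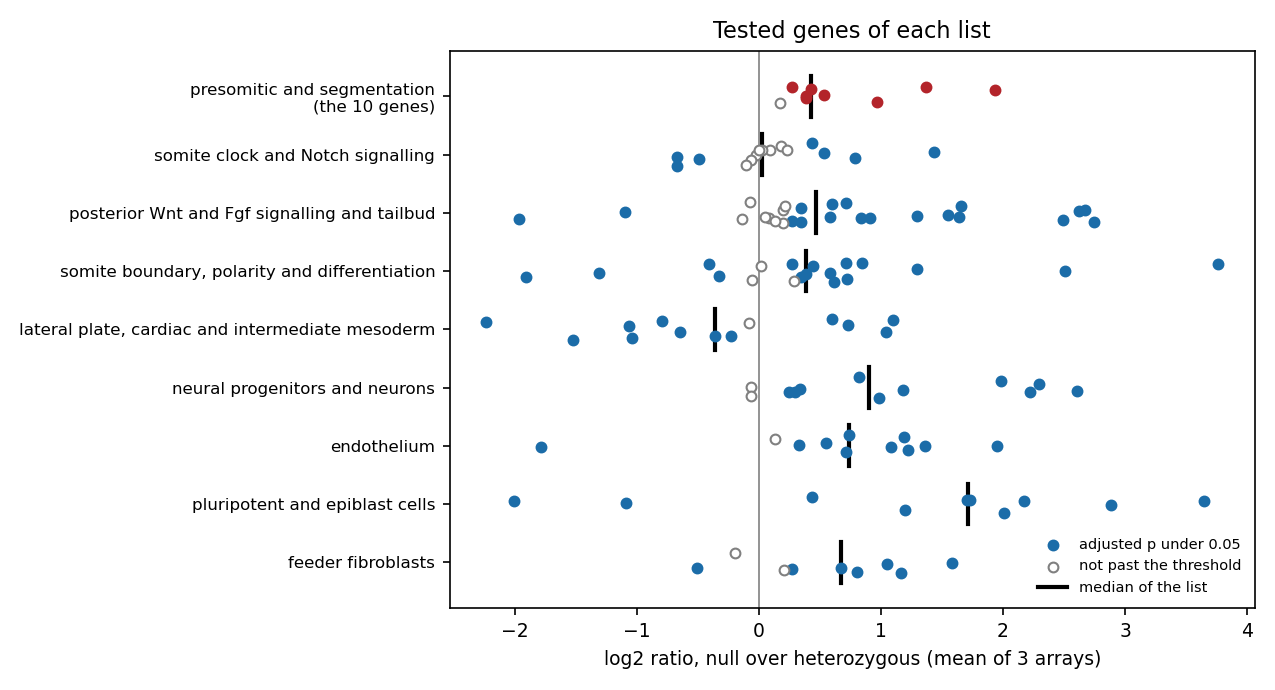
Log2 ratio of every tested gene of the 10-gene set (top) and of 8 other lists, with the list's median as a bar. Filled points passed an adjusted p of 0.05. The set lies wholly right of 0, at a lower median than the genes of pluripotent and epiblast cells, and the lateral plate, cardiac and intermediate mesoderm list lies mostly left of 0.

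Most tested markers of neural, endothelial, pluripotent and feeder cells were also called higher, against 30.2% of all genes tested. Of 12 tested markers of neural progenitors and neurons, where Dll1, Dll3 and Lfng are also used, 10 rose and 0 fell (median 0.90), with Zic2 at 2.60 (SE 0.16), Tubb3 at 2.29 (SE 0.11) and Sox3 at 2.22 (SE 0.12). Their summed signal ranged from 9812 to 11864 in null and from 2881 to 3252 in heterozygous cultures, in normalised intensity units, while Pax6, Neurog1 and Neurog2 were not among the genes tested. Olig2, 1 of the 10, passed the filter only through the null channel. With processed signals 10 of the 12 neural markers rose and 2 fell. With no filter on dim probes 9 of 15 rose and 0 fell, at a median of 0.33. Of 11 endothelial markers, 9 rose and 1 fell (median 0.73, summed signal 12478 to 15232 against 7882 to 10294), with Etv2 at 1.95 (SE 0.10), Cldn5 at 1.36 (SE 0.16) and Sox17, also of endoderm, at -1.78 (SE 0.08). Of 10 markers of pluripotent and epiblast cells, which express Tcf15 early in differentiation, 8 rose and 2 fell (median 1.72, summed signal 69973 to 82284 against 22672 to 26877), with Fgf5 at 3.65 (SE 0.15), Dnmt3b at 2.89 (SE 0.11) and Otx2 at 2.17 (SE 0.10). The 2 that fell, named after their values were seen, were Klf4 at -2.01 (SE 0.09) and Zfp42 at -1.09 (SE 0.08). Of 9 feeder fibroblast markers, 6 rose and 1 fell (median 0.68), with Col1a2 at 1.59 (SE 0.16), Lum at 1.17 (SE 0.20) and Dcn at 1.05 (SE 0.20). Without replicate 1 the median of the feeder list was 0.44 with 4 higher, and without replicate 2 it was 0.92 with 5 higher. On replicate 2 the ratios of Lum, Dcn and Col3a1 were 0.43, 0.28 and 0.08, against 1.15 or more on the other arrays. Over the 7 of them measured on all arrays, the summed signal was 68813 to 94686 in null against 47819 to 64915 in heterozygous cultures. The part of these cells in the rise of Dll3, Tcf15 or Meox1 was not tested.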

How the data were processed

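The authors deposited the scanner's spot and local background intensity values in both channels, with Agilent Feature Extraction (11.5.1.1 in the file headers, 8.5.1.1 in the submitters' processing notes), and a table of processed values with no stated scale. The deposited table, whose normalization and centring by the authors are not known, was read as log2 ratios with medians of -0.10, -0.11 and 0.07, and served as an alternative. The deposited log10 ratio column of the scanner software was not used.

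Median signals were corrected with limma 3.58.1 in R 4.3.3 by normexp with an offset of 50, which pulls ratios of dim probes toward 0, and normalized by loess within arrays, with control and outlier spots at weight 0. Spots of a probe were averaged without outlier spots. Of 39429 probes, 24574 passed the filter and 24552 had at least 2 arrays. The mean ratio was compared with 0 by lmFit and eBayes, adjusted by Benjamini-Hochberg over these, and a gene took its brightest probe. SEs are moderated. Levels are log2 intensities after loess and Aquantile scaling. RefSeq accessions (GRCm38.p6 table) named 28025 probes. The array design is on mm9 per the file headers, so promoters were matched by symbol. On simulated data the test recovered 42% of changes of 0.5 on the log2 scale and 98% of changes of 1, with 13 false calls among 183. Those calls were among 24326 probes, while the real fit called 60.3% of genes, so these shares do not carry over to it. Whether changes of the size seen for most members were missed was not tested.

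The members and lists were chosen with earlier results of these data known. Named genes are the members, Hopx, up to 3 called genes with the largest change from each list (Mfng among them), and T, Mesp1, Wnt3a, Fgf8, Cdx2, Rspo3, Uncx, Foxc2, Pax3, Notch1, Nrarp and Hes1. Rfng, Meox2, Spry2, Klf4, Zfp42, Foxf1, Wt1 and Hand2 were chosen after values had been seen. So were the 5 gene pairs, the motifs, the promoters printed and the dye term. Alternatives covered signals, normalization, filter, variance, source of ratios, probe rule, pairing within arrays, replicates, a dye term and the direction of replicate 3.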

Additional observations from a re-analysis of the deposited data

How the results depend on the processing

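The dye term was chosen after seeing the data, and causes of changes were not tested except where stated. With replicate 3 as labelled, 0 genes were higher and 0 lower, 0 of the 7 members tested passed, their median was 0.15 and Dll1 turned to a log2 ratio of -0.070, which follows from 1 array of opposite sign. With the variance of each probe alone, 1964 genes were higher and 2034 lower, and 3 members passed. By the authors' deposited values, 3914 genes were higher, 5 members passed and their median was 0.36. Processed signals moved 11 of the named genes other than members by over 1.5 times, all away from 0. Klf4, Zfp42, Foxf1, Wt1 and Hand2 were not counted there. Processed signals also put the members' median at 1.63. Median centring without loess put it at 0.57, with 3008 genes lower and 74.0% of calls higher against 50.0% in the main fit, and the median of all genes at 0.23. Requiring signal in both genotypes left 6 members tested and 5 called, since Meox1, Mesp2 and Ripply2 could not enter. Each array pairs the genotypes, so the main ratios hold the replicate block. Taking each channel as its own sample with no replicate block, 4026 genes were higher, 4115 lower and 7 members passed, Dll1 being lost. Leaving out each replicate in turn gave 7 to 8 members called and a median of 0.40 to 0.46. Dll3 and Lfng kept their calls under every alternative except replicate 3 as labelled. Dim signal limits Msgn1, Meox1, Mesp2 and Ripply2.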
